A study of Mus musculus with 20 samples.

Results

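New transcription of 47 genes for developmental transcription factors was measured in mouse embryonic stem cells before and during a drug block of RNA polymerase II. The genes are known as bivalent in such cells, and they were taken by gene name from the deposited table, where each of the 47 names matched 1 of the 22556 rows. The cells were wild-type E14 embryonic stem cells, a line from the inner cell mass of the mouse blastocyst, kept in serum with leukemia inhibitory factor on gelatin. Cells were left without drug (0 h), kept for 2 h or 5 h in DRB at 100 µM, or kept for 1 h or 2 h in triptolide at 10 µM. DRB inhibits the kinase of P-TEFb, which lets paused polymerase move into the gene body. Triptolide acts on XPB, the TFIIH subunit that opens DNA for initiation. Medium with 4-thiouridine at 150 µM was given for 10 min so that RNA made in that time carried a tag for capture, and medium lacking it served as the background control. Each of the 5 conditions had 2 tagged and 2 untagged samples, 20 samples in 10 groups, all of the same line, genotype and culture.

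Bivalent promoters carry an activating and a repressive histone methylation at the same CpG island. The repressive mark is placed by Polycomb group proteins, and in embryonic stem cells the genes behind such promoters, many of them factors that specify germ layers and organs, are held at very low transcription until a lineage is chosen. No histone mark was measured in these samples, so bivalency is background here and was not checked. The cell type was checked by its own markers, of which 9 of 10 for embryonic stem cells were above 1 read per kilobase (kb) without drug. The remaining marker was at 0 without drug, and at 2 h of DRB all 10 were above that level.

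The deposited table gave 1 column per condition, in reads per kb of gene length after background subtraction, with negative values set to 0. Replicates are not separate in it, so no value below has a replicate error and no difference has a test. A value of 0 can therefore be a negative difference, and it is called "listed at 0". Net reads, the whole number of reads behind a value, were recovered from the step between the values of a gene. They summed to 1211049 without drug, 324159 at 2 h and 92255 at 5 h of DRB, and 71804 at 1 h and 60792 at 2 h of triptolide. Brackets hold exact 95% intervals (Clopper-Pearson for a ratio, Poisson for a number of reads), which cover counting error only. Unless stated otherwise, 5 values in a row follow the order no drug, DRB 2 h, DRB 5 h, triptolide 1 h and triptolide 2 h.

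The 47 genes gave little signal in any column. Above 0 were 26 of them without drug, 17 at 2 h of DRB, 13 at 5 h of DRB, 21 at 1 h of triptolide and 22 at 2 h of triptolide. The others, numbering 21, 30, 34, 26 and 25 in the same order, were listed at 0. Among all genes the share listed at 0 was 32.4%, 39.5%, 58.2%, 64.6% and 59.3%. For the factor genes the shares were 44.7%, 63.8%, 72.3%, 55.3% and 53.2%, so their share at 0 was the larger without drug and in both DRB columns, and somewhat the smaller in the triptolide columns, with no test of these differences.

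Few of the 47 passed 1 read per kb. Their numbers above that level were 3, 0, 1, 2 and 1, while 36.9%, 16.7%, 4.26%, 2.28% and 2.44% of all genes were above it. The mean level of the 47 was 0.337, 0.113, 0.0852, 0.152 and 0.137 reads per kb, against 2.98, 0.947, 0.224, 0.123 and 0.138 for all genes. Without drug the mean level of the factor genes was the lower by far, and in the triptolide columns it was close to that of all genes.

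**Figure D1:**
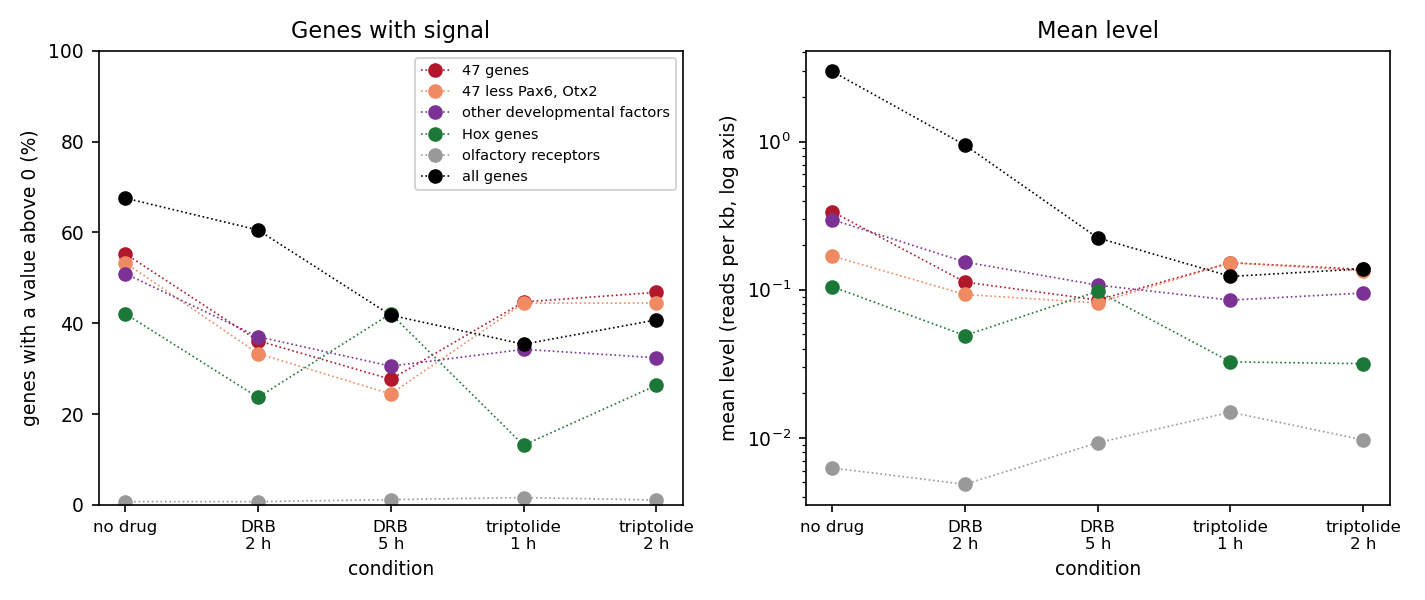
Share of genes above 0 (left, %) and mean level (right, reads per kb, log axis) in the 5 conditions for the 47 factor genes and the gene lists they are compared with. The factor genes go from 55.3% above 0 without drug to 27.7% at 5 h of DRB, and their mean level from 0.337 to 0.0852 reads per kb.

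The net reads of the 47 genes together were 267 (236 to 301) without drug, 70 (54.6 to 88.4) and 45 (32.8 to 60.2) with DRB, and 69 (53.7 to 87.3) and 63 (48.4 to 80.6) with triptolide. They made up 0.0220%, 0.0216%, 0.0488%, 0.0961% and 0.104% of all net reads. Without drug, 174 of the 267 reads (65.2%) lay on Pax6 and Otx2, and Pax6 alone held 52.1%. The other 45 genes had 93, 43, 39, 60 and 57 net reads. A whole-group value therefore mostly gives Pax6 and Otx2 in the column without drug and the other genes in the drug columns.

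No signal in any column was found for 8 of the 47 genes (17.0%), beside 22.4% of all genes. These were Cdx2, a trophectoderm and later posterior gut factor; Gsc, a factor of the organizer; Sox17, which specifies endoderm; Sox9, needed for cartilage and testis; Isl1, of motor neurons and heart progenitors; Lhx9, of the gonad and forebrain; Nkx2-5, of the heart; and Foxc1, of mesoderm and eye. A further 25 genes never had more than 4 net reads in a column. The 14 genes with at least 5 net reads in some column, and Neurog2, which passed 1 read per kb with fewer, are described one by one below. Only Pax6 and Gata2 were above 0 in all 5 columns.

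**Figure D2:**
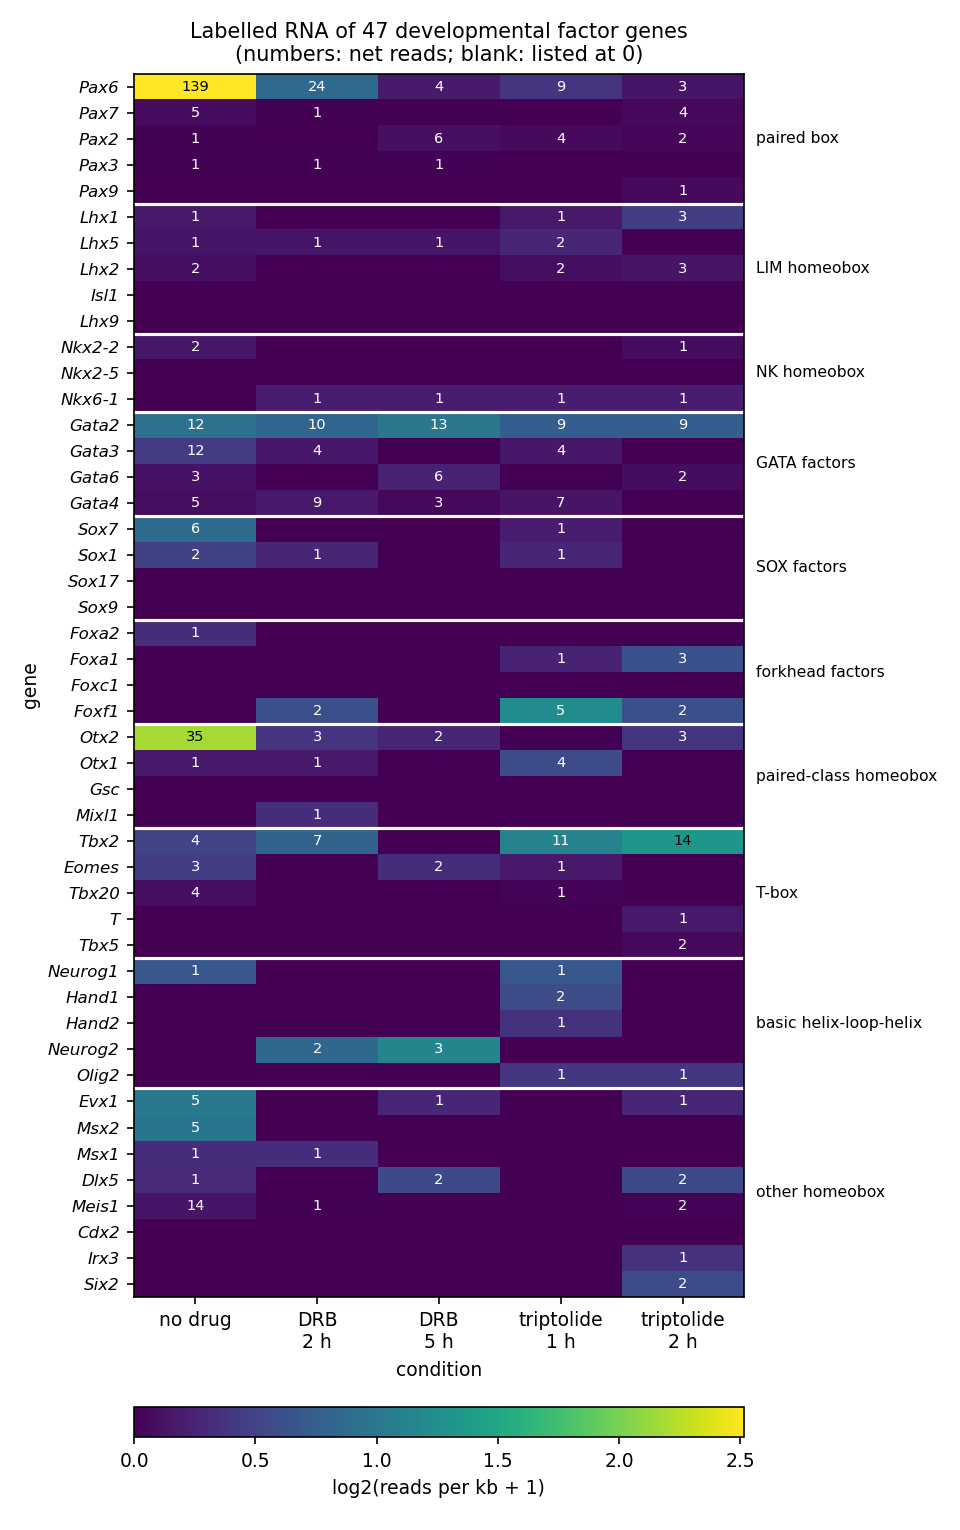
Level of each of the 47 factor genes (rows, by family) in the 5 conditions (columns), coloured by log2(reads per kb + 1), with the number of net reads written in each cell above 0. Most cells are at 0 or hold 1 to 4 reads, and Pax6 and Otx2 without drug stand out with 139 and 35.

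The promoters of these genes can be set beside their signal, since CpG islands are where Polycomb proteins bind. RefSeq promoter sequence (GRCm38.p6, 300 bases from 250 before to 50 after the start) was matched for 33 of the 47 and for 15444 genes of the table in all. A promoter was counted as CpG-rich when over 50% of its bases were G or C and its CpG number was over 0.6 of that given by its C and G content. This held for 23 of the 33 factor genes (69.7%), for 48.2% of all genes, for 74.1% of the 6121 genes above 1 read per kb without drug, and for 4.55% of the 2947 genes at 0 in every column. That last group holds many olfactory receptor genes, since 95.6% of the 1108 in the table were at 0 in every column. None of the 853 matched receptor genes had a CpG-rich promoter. Of the 6 matched factor genes at 0 in every column, 4 had such a promoter. Lhx9 and Nkx2-5, the other two without signal, did not, and Lhx9 had the lowest CpG ratio of the 33 (0.261). The RefSeq starts of Lhx9 and Nkx2-5 lie 6133 and 3444 bases inside their GENCODE M21 spans, so their most upstream promoters were not examined. The same limit holds for genes with signal, such as Gata3 (11434 bases), Nkx2-2 (7841), Otx2 (6175) and Pax9 (3704). Of these, Gata3 and Nkx2-2 are among the 23 counted as CpG-rich. The comparison of factor genes at 0 in every column describes 6 promoters only. The median promoter of the 33 had 22 CpGs and 61.7% G or C, against 15 CpGs and 57.0% for all genes.

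**Figure D3:**
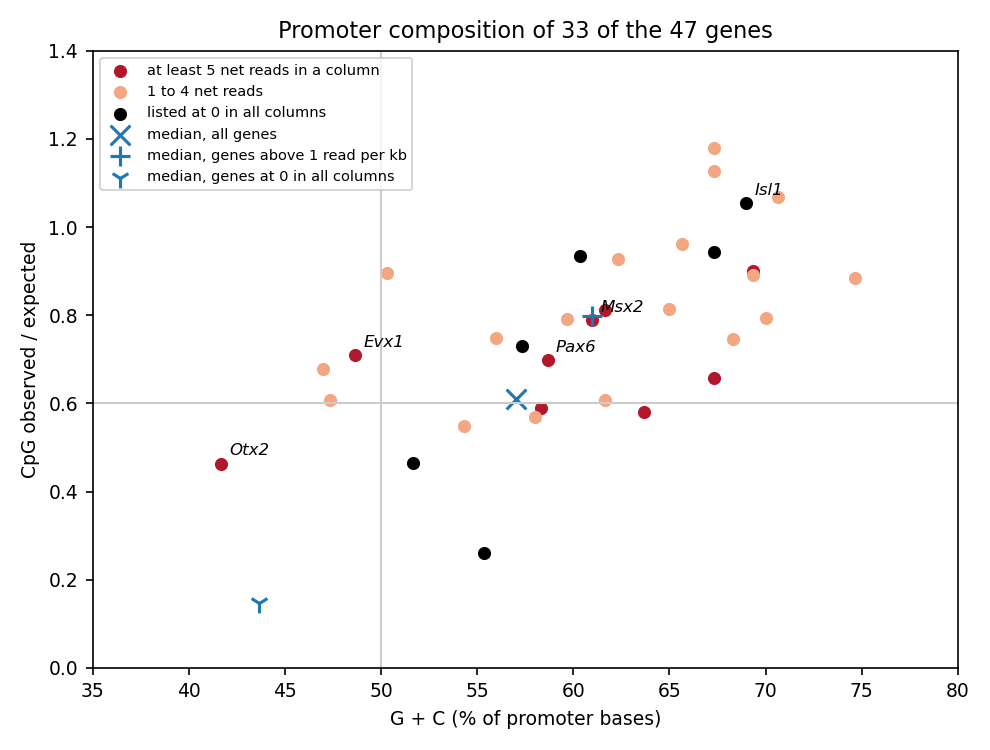
G and C content (x, %) against the observed-to-expected CpG ratio (y) of 33 factor gene promoters, with lines at 50% and 0.6 and the medians of the lists named in the key. Of the 6 factor genes at 0 in every column 4 lie above both lines and Lhx9 is lowest of all in CpG ratio (0.261), and 23 of the 33 lie above both lines. The RefSeq starts of Lhx9 and Nkx2-5 used here lie inside the annotated spans, as do those of Gata3, Nkx2-2, Otx2, Pax9 and some others.

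The letters TATAAA, read on either strand (TTTATA on the other), were in 3 of the 33 promoters (9.09%), those of Otx2, Gsc and Olig2, and in 12.6% of all promoters of that length. The 250 bases before the RefSeq start are shown for Pax6 and Otx2, which hold most of the reads, for Evx1 and Msx2, the next highest genes without drug, and for Isl1, the gene without signal that has most CpGs. Isl1 was chosen for display after its values were seen. They are Pax6 at chr2:105668646-105668895 (plus strand), Otx2 at chr14:48667645-48667894 (minus), Evx1 at chr6:52313248-52313497 (plus), Msx2 at chr13:53472781-53473030 (minus) and Isl1 at chr13:116309689-116309938 (minus). Each runs 5′ to 3′ toward the start, with every CpG in capitals.
Pax6: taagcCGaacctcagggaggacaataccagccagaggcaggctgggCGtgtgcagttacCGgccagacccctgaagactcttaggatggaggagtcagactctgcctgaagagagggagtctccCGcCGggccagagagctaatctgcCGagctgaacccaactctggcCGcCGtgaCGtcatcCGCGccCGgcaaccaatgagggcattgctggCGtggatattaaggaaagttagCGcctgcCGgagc
Otx2: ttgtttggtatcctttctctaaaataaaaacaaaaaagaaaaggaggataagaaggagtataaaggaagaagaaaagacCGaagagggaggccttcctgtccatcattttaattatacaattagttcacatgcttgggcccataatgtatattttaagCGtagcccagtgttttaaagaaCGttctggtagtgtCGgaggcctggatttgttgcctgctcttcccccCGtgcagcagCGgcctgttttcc
Evx1: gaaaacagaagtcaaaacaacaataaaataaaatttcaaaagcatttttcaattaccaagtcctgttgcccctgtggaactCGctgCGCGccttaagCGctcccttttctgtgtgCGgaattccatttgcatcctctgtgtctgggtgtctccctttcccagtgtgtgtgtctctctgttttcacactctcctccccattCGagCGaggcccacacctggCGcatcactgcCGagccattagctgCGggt
Msx2: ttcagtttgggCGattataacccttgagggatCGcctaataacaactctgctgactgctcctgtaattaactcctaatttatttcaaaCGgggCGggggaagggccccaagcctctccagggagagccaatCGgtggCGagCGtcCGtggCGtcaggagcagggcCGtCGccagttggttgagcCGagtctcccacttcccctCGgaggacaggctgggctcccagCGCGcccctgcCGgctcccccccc
Isl1: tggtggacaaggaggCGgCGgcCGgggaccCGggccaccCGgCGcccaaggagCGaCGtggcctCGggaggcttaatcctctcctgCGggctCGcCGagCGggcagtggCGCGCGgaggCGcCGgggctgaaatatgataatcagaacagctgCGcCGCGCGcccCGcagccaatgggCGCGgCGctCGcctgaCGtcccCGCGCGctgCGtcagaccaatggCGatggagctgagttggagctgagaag
In these stretches Pax6 has 15 CpGs, Otx2 6, Evx1 10, Msx2 16 and Isl1 33. Isl1 has the most CpGs of the 5 shown and Otx2 the fewest. Isl1 was picked by its CpG number among the genes without signal, so this order says nothing on CpGs and signal. The RefSeq start of Otx2 lies 6175 bases inside the gene's span in the GENCODE M21 annotation, so the stretch shown is not the promoter of its most upstream start.

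The paired box genes encode factors with a paired DNA-binding domain. Pax6 (ENSMUSG00000027168; chr2, 105668900 to 105697364, plus strand), which directs eye, forebrain and pancreas development, had the highest level of the 47 genes. It was at 4.71, 0.813, 0.136, 0.305 and 0.102 reads per kb, from 139, 24, 4, 9 and 3 net reads. Without drug its level was above that of 85.1% of all genes, and every drug column was far below. Pax6 kept 17.3% (10.7 to 26.8) of its no-drug reads at 2 h of DRB and 2.88% (0.773 to 7.53) at 5 h. It kept 6.47% (2.90 to 12.7) at 1 h of triptolide and 2.16% (0.440 to 6.44) at 2 h. All 4 intervals lie below 100%. At 2 h its reads in DRB were 8.00 times those in triptolide (2.43 to 41.5), and at 5 h of DRB they were 16.7% (4.20 to 48.5) of those at 2 h. An antisense gene, Pax6os1, covers 1431 bases of the Pax6 span, and its own values are not in the table used here.

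The other 4 paired box genes were near the floor. Pax2, of kidney and midbrain, had 1, 0, 6, 4 and 2 net reads (0.0122, 0, 0.0730, 0.0487 and 0.0243 reads per kb). Pax7, of muscle stem cells and neural crest, had 5, 1, 0, 0 and 4 (0.0518, 0.0104, 0, 0 and 0.0415 reads per kb). These genes are long, so that a few reads give a very low level. Pax3 and Pax9 had at most 1 net read in a column.

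Otx2 (ENSMUSG00000021848; chr14, 48657677 to 48673819, minus strand) is a homeobox factor of the epiblast, forebrain and midbrain. It was at 3.51, 0.301, 0.201, 0 and 0.301 reads per kb, from 35, 3, 2, 0 and 3 net reads. Its no-drug level was above that of 80.9% of all genes, and no drug column held more than 3 reads. It kept 8.57% (1.69 to 27.2) at 2 h of DRB, the same at 2 h of triptolide, and 5.71% (0.666 to 22.2) at 5 h of DRB, and it was listed at 0 at 1 h of triptolide. The length behind its values, 9965 bases, is 2 short of the 9967 from the RefSeq start to the gene's annotated end. An antisense gene, Otx2os1, overlaps 5112 bases of the annotated span. Of the related factors, Otx1 had at most 4 net reads, Mixl1, of primitive streak, 1, and Gsc none.

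The GATA factors bind GATA sequences in blood, trophoblast, heart and endoderm development. All 4 were above 0 without drug. Gata2 (chr6, 88193891 to 88207032), of blood stem cells and trophoblast, was at 0.913, 0.761, 0.989, 0.685 and 0.685 reads per kb, from 12, 10, 13, 9 and 9 net reads. Its 5 values were close to each other, unlike those of Pax6 and Otx2. The drug columns held 83.3% (32.3 to 210), 108% (45.6 to 260), 75.0% (27.9 to 194) and again 75.0% of its no-drug reads. Each of these intervals includes 100%. They lie above the whole interval of Pax6 in each of the 4 drug columns. The pair was set side by side after its values were seen, so this gap describes these genes only. With the columns set to equal sums Gata2 would be higher by 1.01, 2.87, 2.71 and 2.94 (log2 of value + 1) than without drug. That scaling multiplies its 10, 13, 9 and 9 reads by 3.74, 13.1, 16.9 and 19.9. Because negative differences were set to 0, low values can hold chance positive differences. Their part in the reads of Gata2 was not tested.

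Gata3, of T cells and trophoblast, had 12, 4, 0, 4 and 0 net reads (0.364, 0.121, 0, 0.121 and 0 reads per kb). Gata4, of heart and endoderm, had 5, 9, 3, 7 and 0 (0.0687, 0.124, 0.0412, 0.0962 and 0 reads per kb). Gata6, which specifies primitive endoderm, had 3, 0, 6, 0 and 2 (0.0906, 0, 0.181, 0 and 0.0604 reads per kb). Gata3 had most reads without drug, while Gata4 had most at 2 h and Gata6 at 5 h of DRB, each on few reads. The span of Gata3 is overlapped by 9230102O04Rik on the same strand and by 4930412O13Rik on the other, at 0, 0.308, 0, 0.154 and 0 and at 0, 0.375, 0, 0.375 and 0 reads per kb. Both had signal in the same drug columns as Gata3, at 2 h of DRB and 1 h of triptolide, and these reads cannot be told apart.

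The T-box genes share the DNA-binding domain first known from T, the brachyury factor of mesoderm. Tbx2 (chr11, 85832551 to 85841948), a repressor in heart and limb, was at 0.426, 0.745, 0, 1.17 and 1.49 reads per kb, from 4, 7, 0, 11 and 14 net reads. It was highest in the triptolide columns and listed at 0 at 5 h of DRB. The triptolide columns held 2.75 (0.815 to 11.8) and 3.50 (1.10 to 14.6) times its no-drug reads, and only the second interval lies above 1. Tbx2 exceeded 1 read per kb in the triptolide columns alone, and this interval is 1 of many looked at. It is therefore no support for a rise. No other gene overlaps Tbx2 in the annotation. Eomes, of trophoblast and endoderm, had at most 3 net reads, Tbx20, of heart, at most 4, Tbx5, of heart and forelimb, at most 2 and T 1.

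The forkhead genes include pioneer factors of endoderm. Foxf1 (chr8, 121084386 to 121088144), of lung and gut mesenchyme, was at 0, 0.532, 0, 1.33 and 0.532 reads per kb, from 0, 2, 0, 5 and 2 net reads. It was highest at 1 h of triptolide and listed at 0 without drug. Foxf1 lies inside the annotated span of Gm20388 on the same strand, which was at 2.62, 0.709, 0.126, 0.102 and 0.122 reads per kb. The order of columns thus differs between the pair. Foxa1 had at most 3 net reads, Foxa2 had 1 without drug and none with a drug, and Foxc1 had none.

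Of the basic helix-loop-helix genes, Neurog2 (chr3, 127633135 to 127635631), which drives neuron formation, passed 1 read per kb. It was at 0, 0.802, 1.20, 0 and 0 reads per kb, from 0, 2, 3, 0 and 0 net reads. Both DRB columns held its few reads, and the gene is short. Neurog1, Hand1, Hand2 and Olig2 had 0 to 2 net reads in each column.

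The remaining homeobox genes differed in level. Evx1 (chr6, 52313498 to 52318378), of posterior mesoderm and spinal cord, was at 1.02, 0, 0.205, 0 and 0.205 reads per kb, from 5, 0, 1, 0 and 1 net reads. Msx2, of skull and limb, was at 0.962 reads per kb without drug, from 5 net reads, and was listed at 0 in all 4 drug columns. Meis1, a cofactor of Hox proteins, had 14, 1, 0, 0 and 2 net reads (0.101, 0.00722, 0, 0 and 0.0144 reads per kb). All of these had most of their reads without drug. Meis1 kept 7.14% (0.169 to 46.9) at 2 h of DRB. The antisense gene Evx1os covers 1335 bases of Evx1.

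Among the lower homeobox genes, Dlx5, Msx1, Six2 and Irx3 had 0 to 2 net reads per column and Cdx2 none. The LIM homeobox genes Lhx1, Lhx2 and Lhx5, of kidney and brain, had at most 3, and Isl1 and Lhx9 none. The NK genes Nkx2-2 and Nkx6-1, of ventral spinal cord and pancreas, had at most 2 and 1, and Nkx2-5 none. Of the SOX genes, Sox7, of endoderm and blood vessels, had 6, 0, 0, 1 and 0 net reads (0.850, 0, 0, 0.142 and 0 reads per kb). Sox1, of neural plate, had at most 2, and Sox9 and Sox17 had none.

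**Figure D4:**
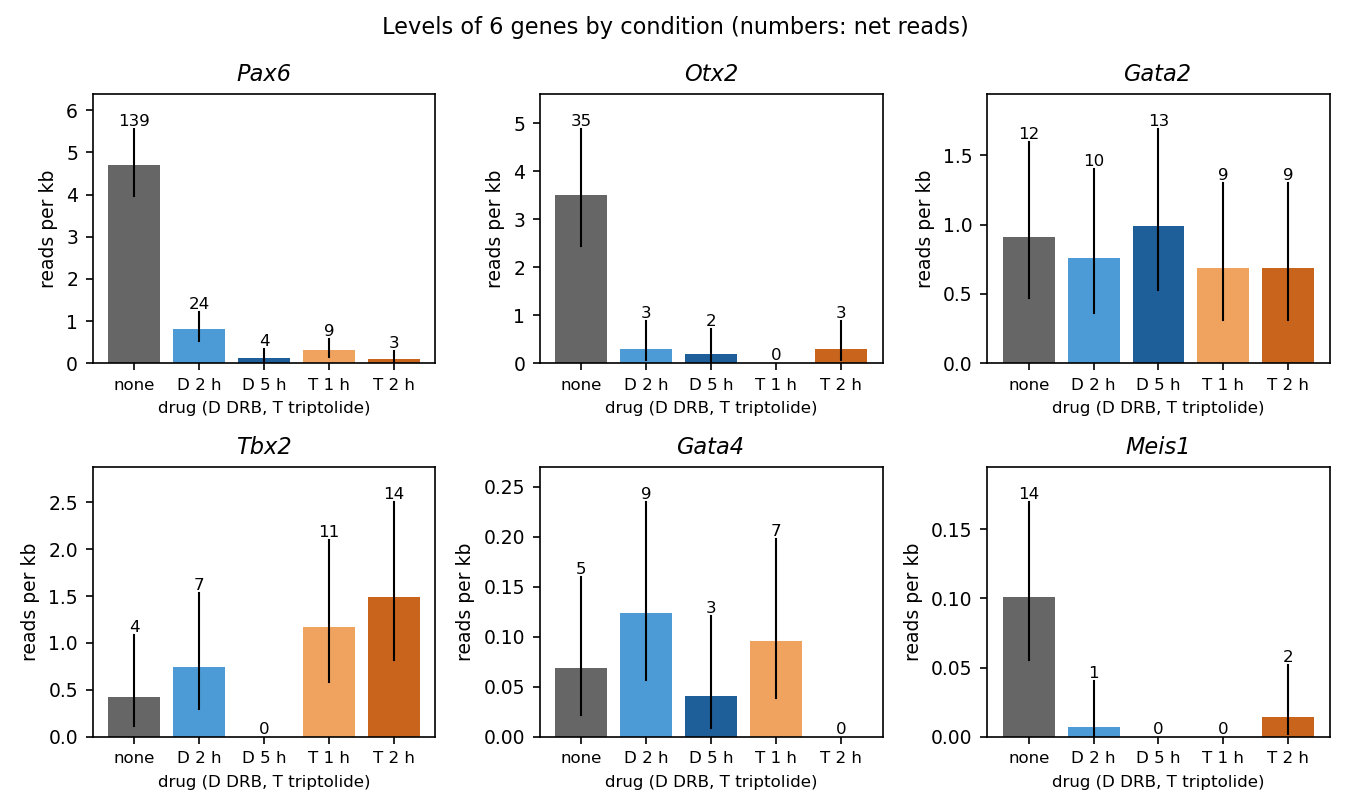
Level (reads per kb) of Pax6, Otx2, Gata2, Tbx2, Gata4 and Meis1 in the 5 conditions, with exact 95% Poisson intervals as lines and net reads as numbers. Pax6 and Otx2 are high without drug only, Gata2 lies between 0.685 and 0.989 reads per kb throughout, and Tbx2 is highest at 2 h of triptolide with 1.49.

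Which column was highest gives another view of the 39 genes with signal. For 13 of them (33.3%) it was the column without drug, for 20 a drug column, and for 6 the highest value was shared by several columns. Among all genes with signal, 12351 of 17512 (70.5%) were highest without drug. Choosing genes by a low value without drug in itself lowers this share. Of the genes at or below 1 read per kb without drug that had any signal, 4402 of 9186 (47.9%) were highest without drug. Of the factor genes at that level, 10 of 36 (27.8%) were. Low shares were also found at any level in other lists of genes with signal. They were 33 of 83 (39.8%) for other developmental transcription factors, 7 of 30 (23.3%) for Hox genes and 6 of 49 (12.2%) for olfactory receptor genes. A low share was therefore not particular to the factor genes. The factor genes were also short, with a median length of 8038 bases for those with signal against 22042 for all genes with signal, and the part of length in these shares was not tested.

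DRB at 2 h was compared with no drug to see which genes lost signal when pause release was blocked. Of the 47 genes, 6 passed the filter of more than 1 read per kb in at least 1 column, and 41 did not. Pax6, Otx2 and Evx1 were lower by at least 1 on the log2(value + 1) scale, with differences of -1.65, -1.79 and -1.02. That is 3 of 6, where 66.1% of the 8773 genes past the filter were lower. None of the 6 was higher by that size, against 2.2% of all, and Tbx2, Foxf1 and Neurog2 differed by 0.29, 0.62 and 0.85. On this scale a gene can be lower by 1 only if it is at 1 read per kb or more in the reference column, which held without drug for these 3 of the 6 genes and for 8326 of the 8773, and higher only if it is at that level with the drug, which held for none of the 6. The call of Evx1 rests on 0 against 5 reads, with an interval of the ratio from 0% to 109% that includes no change. A gene that passed the filter through its highest column had to differ somewhere, so these counts describe 6 genes and support nothing further.

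At 5 h of DRB, Pax6 and Otx2 were lower than without drug, by -2.33 and -1.91 on that scale, and Neurog2 was higher by 1.14. That call rests on 3 reads against 0, with a lower bound of 41.3% for the ratio, so the interval includes no change. Of all genes past the filter 85.5% were lower and 1.03% higher. Evx1, Tbx2 and Foxf1 differed by -0.75, -0.51 and 0.00. The median difference of the 6 was -0.36 at 2 h and -0.63 at 5 h, and that of all genes past the filter -1.27 and -1.86. The medians cannot be compared, since 3 of the 6 passed the filter only through a drug column, as did 447 of the 8773.

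Triptolide was compared with no drug at 1 h and at 2 h. At 1 h Pax6, Otx2 and Evx1 were lower, by -2.13, -2.17 and -1.02, and Foxf1 was higher by 1.22, where 87.9% of all genes were lower and 0.787% higher. The intervals behind Evx1 (0 against 5 reads, 0% to 109%) and Foxf1 (5 against 0 reads, lower bound 91.6%) include no change. At 2 h Pax6 and Otx2 were lower, by -2.37 and -1.79, and no factor gene was higher by that size, where 87% were lower and 0.866% higher. The medians of the 6 genes were -0.51 and -0.37 and those of all genes -1.98 and -1.92, with the same limit as in DRB. Tbx2 differed by 0.61 and 0.80, under the size rule. The 4 comparisons with no drug share its column, so their likeness is no separate evidence.

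No factor gene differed past the size rule among the drug columns. From 2 h to 5 h of DRB the 6 genes differed by -0.80 to 0.29, and 0 were lower or higher, where 29.7% of all genes were lower and 1.13% higher. None of the 6 was at 1 read per kb at 2 h of DRB, so none could be lower by that size, and the count says nothing of them. Pax6, the one with most reads there, went from 24 to 4. From 1 h to 2 h of triptolide they differed by -0.61 to 0.38, where 3.03% were lower and 3.35% higher, and 2 of the 6 were high enough at 1 h to be lower. Between 2 h of DRB and 2 h of triptolide they differed by -0.51 to 0.85, where 1.04% of all genes were lower and 33.2% higher in DRB. None of the 6 could be higher in DRB by that size, although Pax6 had 24 reads there against 3. Doses of the 2 drugs differ, so this last pair is given side by side only.

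These directions depend on the deposited scale. If the columns were set to the same sum of net reads, the median difference of all genes past the filter would be -0.28, -1.11, -1.47 and -1.14 in place of -1.27, -1.86, -1.98 and -1.92 in the 4 comparisons with no drug. The 6 factor genes would then count 2 lower and 3 higher at 2 h of DRB (all genes 23.6% and 12.5%) and 1 and 1 at 5 h (53.4% and 14.9%). They would count 2 and 2 at 1 h of triptolide (63.6% and 12.4%) and 0 and 3 at 2 h (53.9% and 16.6%). From 2 h to 5 h of DRB they would count 2 lower and 2 higher (38.9% and 15.2%), and the same from 1 h to 2 h of triptolide (17.4% and 29%). In DRB against triptolide at 2 h it would be 4 lower and 1 higher (19.7% and 41.8%). Pax6 would be higher by 0.11 at 1 h of triptolide, and Otx2 higher by 0.63 at 2 h of triptolide. Evx1 would be higher by 0.87 at 5 h of DRB and by 1.33 at 2 h of triptolide. Which scale fits the cells is not given in the sources used here.

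Summed over the 47 genes, 26.2% (19.9 to 34.2) of the no-drug reads remained at 2 h of DRB and 16.9% (12.0 to 23.2) at 5 h. At 1 h and 2 h of triptolide 25.8% (19.5 to 33.8) and 23.6% (17.6 to 31.2) remained. All genes together held 26.8%, 7.62%, 5.93% and 5.02%. At 2 h of DRB the factor genes and all genes were alike within the interval, and in the other 3 columns the share of the factor genes was higher. With columns set to equal sums all genes are at 100% by construction, and the 47 would be at 97.9%, 221%, 436% and 470%. Leaving out Pax6 and Otx2, the other 45 genes held 46.2% (31.4 to 67.1), 41.9% (28.1 to 61.6), 64.5% (45.8 to 90.2) and 61.3% (43.3 to 86.1). Their sum in DRB at 5 h was 90.7% (57.3 to 143) of that at 2 h, and in triptolide at 2 h 95% (64.9 to 139) of that at 1 h, both intervals including 100%.

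The shares also differed with the starting level. The 44 factor genes at or below 1 read per kb without drug held 48.9% (33.1 to 71.1), 43.2% (28.7 to 63.9), 68.2% (48.3 to 95.7) and 63.6% (44.7 to 90.0) of their reads. All 14230 genes at or below that level held 37.1%, 21.9%, 26.7% and 18.7%, so the lower bounds for the factor genes were above these shares in all columns but 2 h of DRB. Because negative differences had been set to 0, sums over genes near 0 keep chance positive differences and drop negative ones. The 1108 olfactory receptor genes, a family silent outside the nose, had 17, 24, 25, 33 and 47 net reads, so their sum was highest at 2 h of triptolide. The part of this residue in the sums of the factor genes was not tested.

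**Figure D5:**
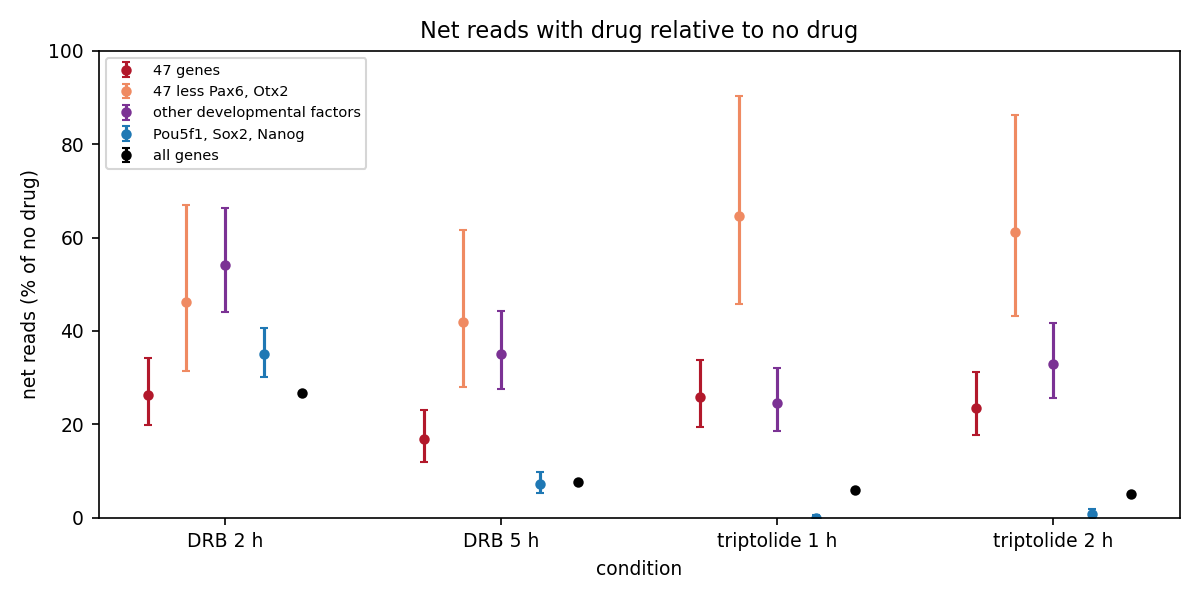
Net reads in each drug column as a percent of no drug, with exact 95% intervals, for the 47 factor genes, the 45 without Pax6 and Otx2, the other developmental factors, Pou5f1 with Sox2 and Nanog, and all genes. The 47 hold 16.9% to 26.2%, and the 45 hold 41.9% to 64.5%.

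Other developmental transcription factors, 108 further genes of the table listed for comparison, were about as low as the 47, with a mean of 0.298 reads per kb without drug. Above 1 read per kb in some column were 13 of them (12.0%), beside 6 of the 47 (12.8%) and 38.9% of all genes. Their 277, 150, 97, 68 and 91 net reads correspond to 54.2% (44.1 to 66.3), 35% (27.5 to 44.3), 24.5% (18.5 to 32.1) and 32.9% (25.6 to 41.8) kept. The intervals lie above those of the 47 in both DRB columns and overlap them in the triptolide columns. Gata5 holds part of the DRB difference. Without it the shares were 41.2% (32.8 to 51.4) at 2 h and 22.4% (16.7 to 29.6) at 5 h. These are still above the 26.2% and 16.9% of the 47. The intervals then overlap, which does not show that the shares are equal. Against the 45 genes without Pax6 and Otx2, the intervals of the 108 overlap in the DRB columns and are lower in the triptolide columns. The 38 Hox genes, kept apart from that list, had 20, 12, 23, 6 and 15 net reads and none above 1 read per kb in any column. Nkx6-2, Sox21 and Neurod1 had the highest no-drug levels of the 108, 2.92, 2.63 and 2.60 reads per kb. Gata5, named after its values were seen, was at 0, 3.76, 3.66, 0 and 0.209 reads per kb, with 36 and 35 net reads in the DRB columns, a height that no GATA gene of the 47 reached.

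The pluripotency factors are 3 genes with high signal without drug, and they differed from each other in the DRB columns. Sox2 was at 69.6, 52.5, 20.4, 0 and 0 reads per kb. Pou5f1 (Oct4) was at 62.5, 11.2, 0, 0 and 0, and Nanog at 30.0, 7.98, 0, 0 and 0.840. Their 681 net reads without drug became 239, 50, 0 and 6. Without drug all 3 were far above Pax6, the highest of the factor genes at 4.71 reads per kb.

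Markers of other cells that such a culture could hold were below the stem cell markers but not all near 0. The primitive endoderm list (16 rows for 15 names, with Afp and Ttr at 0 throughout) summed to 13.9, 7.48, 1.23, 2.99 and 2.18 reads per kb. The neural list (11 genes, Fabp7 at 0) summed to 15.5, 7.11, 2.90, 1.68 and 1.53. The fibroblast and feeder list (12 genes, Dcn, Lum and Postn at 0) summed to 13.6, 7.64, 1.03, 1.72 and 0.495, and the trophoblast list (7 genes, Prl3d1, Psg17 and Tpbpa at 0) to 10.9, 0.579, 0.819, 0.0519 and 0.102. The highest of each without drug were Sparc at 6.02, Tubb3 at 11.1, Fn1 at 7.04 and Tfap2c at 9.52 reads per kb, all above Pax6, and 3, 3, 2 and 2 genes of these lists were above 1. Their net reads without drug were 833, 302, 543 and 93. The embryonic stem cell list summed to 336, 168, 26.5, 3.65 and 6.31. The sums of the other lists were highest without drug, as were Pax6 and Otx2, and the part of a few differentiating cells in the reads of Pax6, Otx2 or other factor genes was not tested. In a bulk sample fewer cells that transcribe a gene and less transcription per cell cannot be told apart.

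Overlapping genes limit some of these values. In the annotation 17 of the 47 spans are overlapped by another gene, 16 of them by a gene on the opposite strand, and 30 by none. Only 6 of the 17 are overlapped by a gene that has its own row. Whether reads were counted by strand is not given in the sources used here, so reads of a factor gene and of its antisense partner cannot be told apart. Of the genes described above, Tbx2, Gata2, Gata4, Neurog2, Msx2, Sox7 and Pax7 are free of such overlap.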

How the data were processed

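Labelled and unlabelled RNA of 20 samples was sequenced, and the samples were grouped by drug, time and labelling as in the labels. The submitters' processing notes name Bowtie and the build GRCm38 (mm10). Gene identifiers are those of Ensembl 72 per the file headers. Values are the authors' signal in reads per kb, in which, by the name of the deposited sheet, negatives were set to 0. How replicates were combined, how background was subtracted, library sizes and the use of strand were not given in the sources used here. No column was left unmapped (0).

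Within a gene, values were whole multiples of 1000 divided by a length. That length was the annotated span (GENCODE M21, end minus start) where this gave whole reads, else the multiple m of the smallest possible length lying within 10% divided by m of the span, else the smallest possible length. Of 17512 genes with signal these were 10269, 5462 and 1781, and of the 39 factor genes with signal 18, 17 and 4 (Otx2, Msx2, Foxa1 and Lhx1). A length of the last kind may be a fraction of the true one, which would make its net reads too few. By construction, 100% of values came out whole (tolerance 0.01 reads).

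Genes that exceeded 1 read per kb somewhere were compared on log2(value + 1), with a difference of at least 1 called lower or higher. With 1 column per condition the planned limma test was not possible. Genes above 1 read per kb or with at least 5 net reads in a column were described singly. The genes and the lists they are compared with were chosen with earlier results of these data known. Alternatives were a pseudocount of 0.1, no filter, columns scaled to equal sums, a threshold of 0.5 reads per kb, and sums without the highest gene. Length recovery and calls were tested on simulated data. The changes planted there were all in genes above the level of every factor gene, so calls on genes as low as these were not tested. Promoters came from RefSeq (GRCm38.p6). Python 3.11.15, numpy 2.4.6, pandas 2.3.3 and scipy 1.17.1 were used.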

Additional observations from a re-analysis of the deposited data

How the results depend on the processing

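No paired analysis was possible because the deposited table holds 1 column per condition with no replicate numbers, and for that reason neither a replicate block nor leaving out a replicate was run. Without a filter all 14 counts of lower and higher factor genes were unchanged. That outcome was fixed in advance, since a gene below 1 read per kb in every column cannot differ by 1 on this scale. With columns scaled to equal sums, the reads kept by the 47 genes were 97.9%, 221%, 436% and 470% of no drug (DRB 2 h and 5 h, triptolide 1 h and 2 h), 226% for DRB 5 h against 2 h and 20.8% for DRB 2 h against triptolide 2 h. Under that scaling the counts of higher genes were 3 at DRB 2 h, 2 at triptolide 1 h and 3 at triptolide 2 h, those of lower genes 1 at DRB 5 h and 0 at triptolide 2 h, and both were 2 for each later against earlier time, while DRB 2 h against triptolide 2 h gave 4 lower and 1 higher. Pax6 reversed to 0.11 (from -2.13) at triptolide 1 h and Otx2 to 0.63 (from -1.79) at triptolide 2 h. Without Pax6 the reads kept were 35.9%, 32.0%, 46.9% and 46.9% of no drug and 76.7% for DRB 2 h against triptolide 2 h. Without Pax6 and Otx2, an alternative chosen after seeing the data, they were 46.2%, 41.9%, 64.5%, 61.3% and 75.4%. A pseudocount of 0.1 gave, of 6 genes and with the share of all genes in brackets, 2 higher at DRB 2 h (3.40%), triptolide 1 h (1.21%) and triptolide 2 h (1.52%), 4 lower at DRB 5 h (92.4%), 3 lower (64.7%) and 1 higher (4.55%) for DRB 5 h against 2 h, 2 lower (15.7%) and 2 higher (23.7%) for triptolide 2 h against 1 h, and 1 lower (4.55%) and 2 higher (68.7%) for DRB 2 h against triptolide 2 h. Above 0.5 reads per kb were 7, 5, 2, 4 and 4 of the 47 genes, beside 45.2%, 25.3%, 8.81%, 5.43% and 6.15% of all genes. Leaving Gata5 out of the other developmental factors was also chosen after seeing the data. Of the 42 differences of single genes, 23 were labelled moved and 2 reversed by scaling, and 19 moved by the pseudocount. The label reversed leaves out some changes of sign under scaling. Evx1 went from -0.75 to 0.87 at DRB 5 h and from -0.75 to 1.33 at triptolide 2 h. Otx2 went from -0.12 to 0.77 for DRB 5 h against 2 h. The cause was not tested. With 0 to 14 net reads behind nearly every value, depth limits all values but those of Pax6 and Otx2 without drug.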
